A study of Mus musculus with 4 samples.

Results

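Surface cells were compared with crypt cells of the colon in mice fed heme, the pigment that carries iron in red meat. The comparison rests on 2 arrays, 1 of a surface pool and 1 of a crypt pool from the same 3 mice. Values are log2 expression values, and each difference is the heme surface value minus the heme crypt value, so that 1 is 2-fold. A gene was the mean of its probe sets that carry 1 gene symbol. Of 19938 genes measured, the 10698 whose higher heme array reached a floor of 5.75 are described; the floor is the median gene value of the series' 4 arrays. Mr1 (5.75 on its higher array) lay just inside the floor and Krt42 (5.75) just outside it; they differed by 0.26 and 0.55.

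All mice were male C57BL/6, aged 11 weeks, and ate a feed rich in fat (40% of energy) and poor in calcium for 14 days. The feed of the heme group contained heme at 0.5 µmol/g, and that of the control group did not. Laser capture, in which chosen cells are dissected from a section under the microscope, was applied to snap-frozen rolled colons, and RNA was pooled over 3 heme-fed mice and, for the other diet, over 4 control mice. Each pool is 1 array, so variation between mice was not measured, no test was possible, and no p-value or standard deviation between mice is given. The words higher and lower below, where they count genes, mean a difference of at least 2-fold. In such pools a different share of a cell type and a different amount of RNA per cell cannot be told apart. The control pools, measured on arrays of their own, are given beside the heme pools to show where the difference was unlike that without heme.

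The colon epithelium is a sheet of cells folded into crypts. Stem cells and dividing progenitors lie in the lower crypt, and their daughters move up, stop dividing, differentiate into absorptive, goblet or hormone cells and are shed from the surface. Surface cells face the gut contents and carry the transporters, digestive and detoxifying enzymes and barrier proteins of the tissue, whereas crypt cells carry the machinery of division and of making ribosomes. Heme in the gut lumen is known as a source of oxidative and cytotoxic stress for the surface, and in mice as a stimulus of cell division in the crypt.

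Of the 10698 genes, 3400 (31.8%) differed at least 2-fold between the heme pools. In surface cells 1637 (15.3%) were higher and 1763 (16.5%) were lower. The larger differences lay on the surface side, with 554 genes higher and 415 lower at 4-fold or more, 179 and 61 at 8-fold or more, and 39 and 2 at 16-fold or more. The median difference over all 10698 genes was -0.05, and the 5th and 95th percentiles were -1.83 and 2.03. Genes that read high on average were more often higher in surface cells: of 4 equal groups by mean level, 26.9% of the uppermost were higher and 9.08% lower, against 8.82% and 19.1% of the lowermost. For 297 of the 1637 higher genes and 595 of the 1763 lower genes the smaller heme value was below the floor, where RMA values are compressed and a difference has no firm size.

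The split between higher and lower depends on how the arrays are set against each other. Higher genes made up 48.1% of those at least 2-fold different as deposited, 58.6% with each array centred on the median of all genes, which adds 0.15 to each difference, and 95.1% with each array centred on its ribosomal protein genes, which adds 1.11. The last setting leaves 348 genes lower and makes 6692 higher. Ribosomal protein genes were themselves lower in surface cells as deposited, which is described with the crypt genes below. Differences are therefore relative to the other genes on the arrays, and one that lies below 0 by less than 1.11 changes sign with ribosomal centring.

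**Figure D1:**
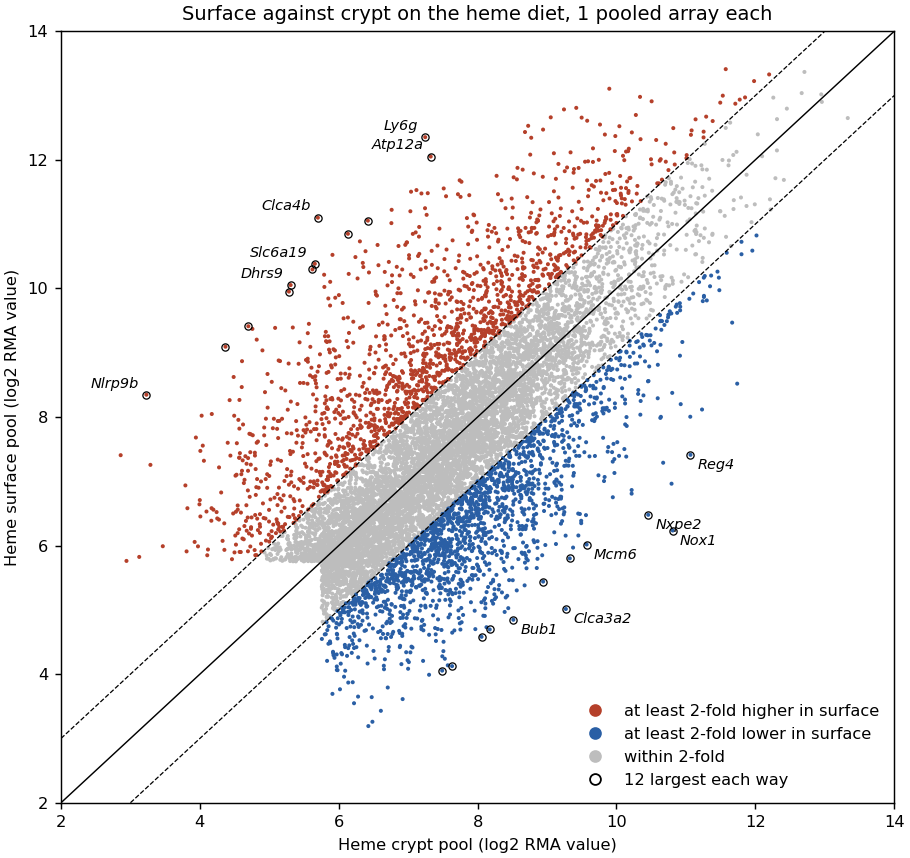
Each point is 1 of the 10698 genes, with its log2 value in the heme crypt pool on the x axis and in the heme surface pool on the y axis; the solid line marks equal values and the dashed lines 2-fold. The 1637 higher genes (red) spread farther from the line than the 1763 lower genes (blue), and the 12 largest differences each way are ringed, with 6 of each named.

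Markers of the compartments followed their labels. Of 18 surface colonocyte markers 17 were higher in the surface pool (15.3% of all genes at the floor were) and none lower, with a median of 3.46 beside 3.49 on the control diet. The membrane protein gene Tmigd1 (4.04), the chloride channel regulator gene Clca4a (3.94), Slc51b of the basolateral bile acid exporter (3.88) and the keratin gene Krt20 (3.80) led them, and Dmbt1 was the member within 2-fold (0.94). Of 22 crypt base and progenitor markers 15 reached the floor, and 12 were lower and 1 higher, with a median of -1.94. The lower ones included Lrig1 (-3.41), a restrainer of EGF receptor signalling, the growth regulator Myc (-3.26), Cdca7 (-3.09) and the chloride loader Slc12a2 (-3.06), and with ribosomal centring 5 counted as lower. Prom1 went the other way (2.53; 2.16 on control).

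The stem cell receptor gene Lgr5, named after its values were seen, read 5.55 in heme surface and 6.69 in heme crypt cells, against 4.76 and 7.75 on the control diet. Its difference of -1.13 was thus smaller than the -2.99 of the control pools, and the lower value lay below the floor on both diets. With median centring, cyclic loess and quantile normalization Lgr5 was within 2-fold on heme (-0.98, -0.96 and -0.92). Olfm4, Ascl2, Notum and Sp5 of the same marker list did not reach the floor on either heme array.

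Secretory markers were mixed. Of 18 goblet cell markers 7 were higher and 5 lower, with a median of -0.03 that turned positive with either centring (0.13 and 1.08). The lectin gene Zg16 (3.03), Clca1 (2.64) and the trefoil peptide gene Tff3 (2.56), products of mature goblet cells, were higher. The secretory regulators Creb3l1 (-2.61), Creb3l4 (-2.27) and Spdef (-1.26) were lower, and the gel mucin gene Muc2 was within 2-fold as deposited (12.90 against 12.96) but at -1.31 with cyclic loess and 1.05 with ribosomal centring. All 6 deep crypt secretory markers lay below 0 and 5 were lower, led by Reg4 (-3.65) and Kit (-2.50). Of 13 enteroendocrine markers at the floor 3 were higher, Tph1 (2.36), Ddc (2.18) and Sct (1.01), and 3 lower, Neurog3 (-1.66), Insm1 (-1.17) and Gcg (-1.11); Insm1 was within 2-fold with cyclic loess (-0.98) and quantile normalization (-0.92), and Gcg with median centring (-0.96). Ddc, which makes serotonin and dopamine from their precursors, read 10.80 and 8.61 on heme and 7.98 and 8.01 on the control diet. Of 18 tuft cell markers only 4 reached the floor, and of these Kctd12 was higher (1.05). On the log2(value + 32) scale, which shrinks low values, Sct (0.65), Neurog3 (-0.87), Insm1 (-0.875) and Kctd12 (0.91) were within 2-fold.

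RNA of cells outside the epithelium was measured in both pools; sums over different probe sets are not comparable between lists, only between pools. The summed linear value of 12 pan-epithelial genes was, on the log2 scale, 15.6 in heme surface and 14.4 in heme crypt cells, and 6 of the 12 were higher in surface cells. The sum of 19 immune cell markers was 11.4 and 10.9. Of these 13 reached the floor and Itgax was higher (1.10), though within 2-fold on the log2(value + 32) scale (0.66). The lymphocyte genes Cd3e, Cd4, Cd79a and Ms4a1 stayed below the floor on both heme arrays. Of 12 intraepithelial lymphocyte markers Ccl5 alone reached the floor. The sum of 13 endothelial markers was 11 in surface and 9.95 in crypt cells, and 6 of the 12 at the floor were higher in the surface pool, among them the vascular growth factor receptor gene Kdr (2.29), Emcn (2.21) and Plvap (1.55). With cyclic loess or quantile normalization 2 pan-epithelial genes counted as higher. Among stromal genes Pdgfra read 9.93 in heme surface cells, Col3a1 9.05 and 8.12 and Acta2 8.76 and 9.43. Smooth muscle and fibroblast markers summed to 12.4 and 12.1. Of 16 at the floor 2 were higher, Pdgfra (2.65) and Col6a1 (1.27), and 2 lower, Mgp (-2.17) and Dcn (-1.61). That is 12.5% each way, against 15.3% and 16.5% of all genes at the floor. Their median of 0.04 changed sign with cyclic loess. On the control diet 1 was higher and 5 lower (median -0.33). Apart from Ret, neural markers lay below the floor, as did the erythroid marker Alas2 and all 4 fat cell markers measured. The part of endothelial and stromal RNA in the results below was not tested.

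**Figure D2:**
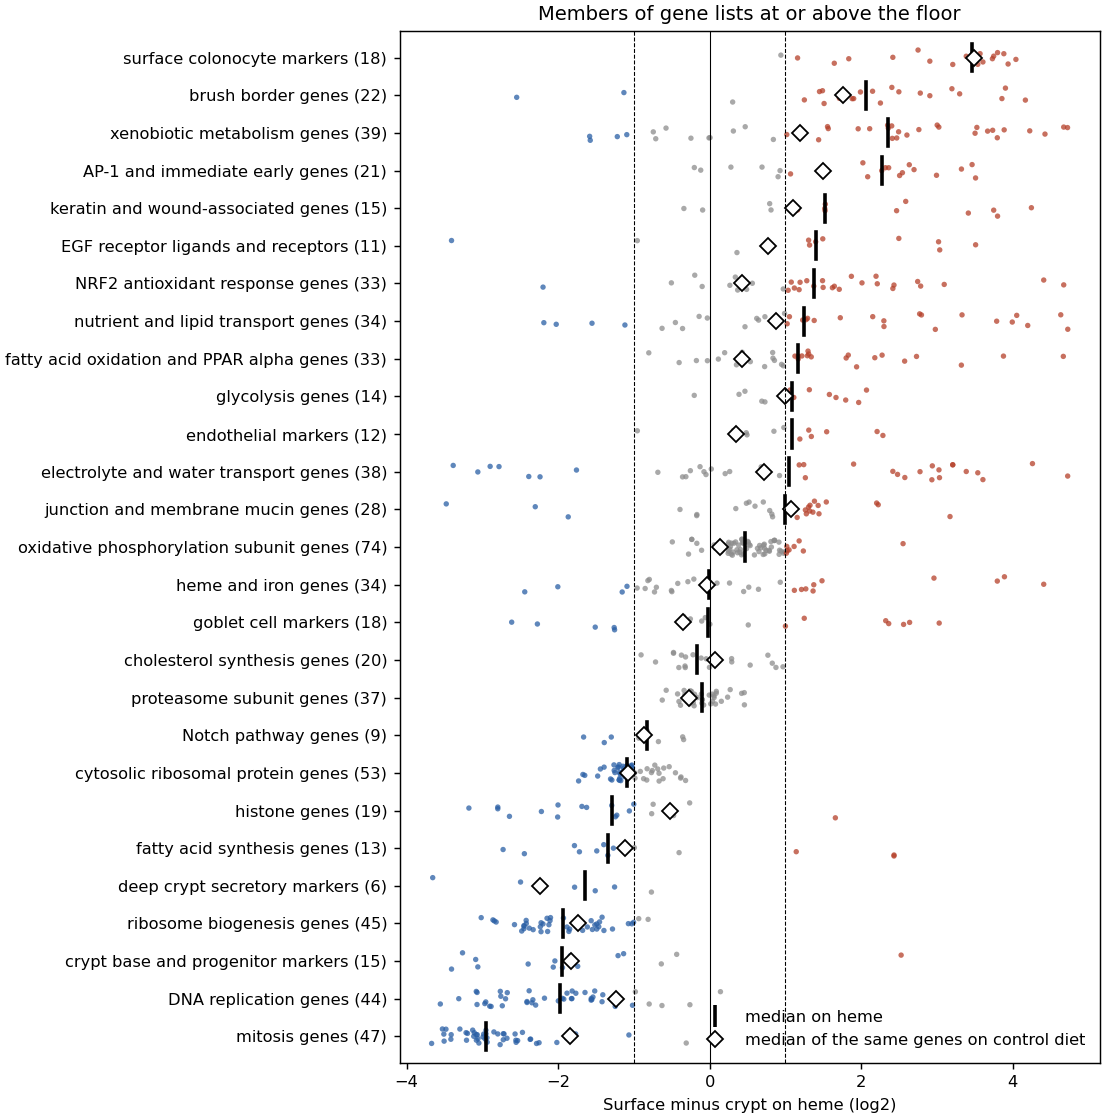
Each point is a member of a gene list at or above the floor, with its heme surface minus heme crypt difference (log2) on the x axis; the number of members is in brackets, red and blue mark at least 2-fold. Black bars are list medians on heme and open diamonds the medians of the same genes on the control diet, which among the lists plotted lie farthest apart for xenobiotic metabolism genes (2.35 and 1.19) and mitosis genes (-2.95 and -1.84).

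On the surface side the largest difference was that of Clca4b. This gene of the calcium-activated chloride channel regulator family read 11.10 in heme surface and 5.70 in heme crypt cells, a 42.3-fold difference (5.40), and 7.34 and 4.93 on the control diet (2.41). Ly6g, a gene of the Ly6 family of membrane-anchored proteins, read 12.35 and 7.25 on heme (5.11) and 11.54 and 4.85 on control (6.69), and its relative Ly6m differed by 4.72. Thus the heme difference was the larger for Clca4b and the smaller for Ly6g, whose crypt value was higher on heme. Nlrp9b, an inflammasome receptor gene (8.35 and 3.23; 5.12), Dhrs9, which oxidizes retinol (10.05 and 5.31; 4.75), and Cyp2d12 (9.09 and 4.37; 4.72) followed.

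Several of the remaining top genes had a smaller surface excess without heme, and Slc6a19 did not reach 2-fold there. The neutral amino acid transporter gene Slc6a19 read 10.38 in heme surface and 5.66 in heme crypt cells (4.73) but 5.12 and 4.40 in the control pools (0.72). The organic anion exporter gene Abcc2 read 10.30 and 5.62 (4.67) against 5.87 and 4.80 (1.07), and Pdk4, which restrains glucose oxidation, 9.95 and 5.28 (4.67) against 6.15 and 4.62 (1.53). The inducible prostaglandin synthase gene Ptgs2 differed by 4.71 on heme and 2.82 on control. For the proton pump gene Atp12a (4.73 and 6.21) and the peptide transporter gene Slc15a1 (4.64 and 5.56) the order was reversed, with the smaller difference on heme. Crypt values of Clca4b, Nlrp9b, Dhrs9, Slc6a19, Cyp2d12, Ptgs2, Abcc2 and Pdk4 lay below the floor, and on the log2(value + 32) scale, which shrinks low values, these 8 genes differed by 3.11 (Nlrp9b) to 4.73 (Clca4b). With both arrays at or above the floor the list was led by Ly6g, Atp12a, Ly6m, Slc15a1, the acute-phase gene Saa1 (4.61) and Sectm1b (4.46).

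On the crypt side the largest difference was that of Nox1, the superoxide-producing NADPH oxidase of the colon, which read 6.23 in heme surface and 10.81 in heme crypt cells (-4.58) and 5.24 and 9.62 on control (-4.38). Its organizer Noxo1 read about the same in both pools (0.02) and its activator Noxa1 was lower (-1.85). Clca3a2 (5.01 and 9.27; -4.26), Nxpe2 (6.48 and 10.46; -3.98) and the lectin gene Reg4 (7.41 and 11.07; -3.65) came next among genes not tied to division. The pore-forming claudin gene Cldn2 (-3.48) and the muscle protein gene Smpx (-3.43) completed them. The other 6 of the 12, Bub1, Mcm6, Racgap1, Hmmr, Kif11 and Nuf2, serve DNA replication or mitosis. All 12 counted as lower on log2(value + 32) and with ribosomal centring as well.

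**Figure D3:**
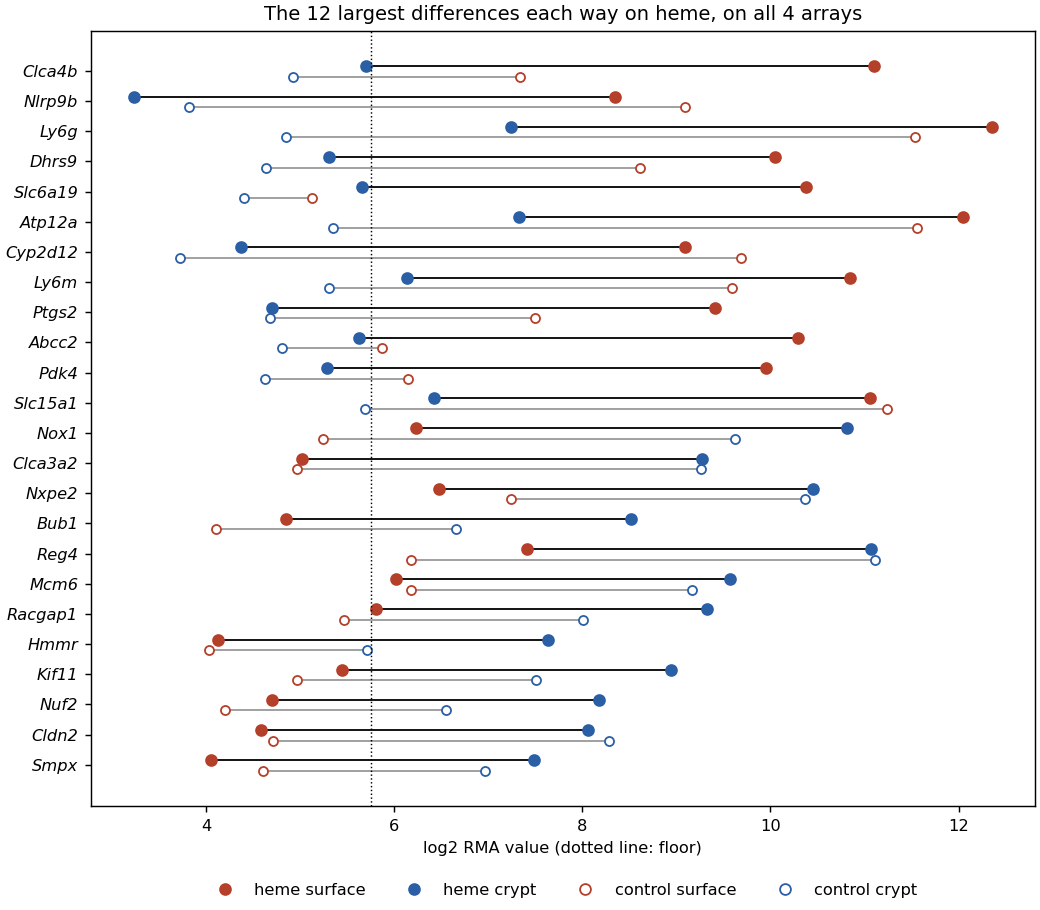
The 12 largest differences each way on heme, with log2 values on the x axis; filled points joined by black lines are the heme pools and open points joined by grey lines the control pools, red for surface and blue for crypt. Slc6a19, Abcc2 and Pdk4 have short control lines and long heme lines, and the mitosis genes sit higher in heme crypt than in control crypt cells.

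Genes of mitosis formed the block with the lowest median. Of 47 measured, all below 0, 46 were lower in surface cells (background 16.5%) and none higher, with a median of -2.95 against -1.84 on the control diet. For 28 of the 47 the smaller heme value lay below the floor, so these differences have no firm size. On the log2(value + 32) scale the heme median was -2.28. The spindle checkpoint kinase gene Bub1 read 4.85 in heme surface and 8.51 in heme crypt cells (-3.67), and 4.11 and 6.65 on control (-2.55). Racgap1, which directs the cleavage furrow, read 5.80 and 9.33 (-3.53; -2.54 on control), the spindle motor gene Kif11 5.44 and 8.94 (-3.50; -2.54), and Hmmr, a spindle-binding receptor of hyaluronan, 4.12 and 7.63 (-3.51; -1.67). In each of these genes the crypt pool was the high one, and the difference was larger on heme than on control in 46 of the 47. Among all 1176 genes lower on both diets, 876 had the larger difference on heme. Nuf2 of the kinetochore (-3.48), Ccna2, the cyclin of S phase and mitosis (-3.41), and Anln (-3.41) followed, and Pttg1, the securin gene, was the member within 2-fold (-0.31). With ribosomal centring 42 counted as lower.

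The promoters of these genes are known to share letters bound by the repressor complex of resting cells (the CHR element, TTTGAA) and by NF-Y (CCAAT). Sequences of 250 bases before to 50 after RefSeq start sites (GRCm38.p6) were searched on both strands; matches of different motifs can overlap by a few bases, and each was counted on its own. Parts of the promoters of 3 of the genes with the largest differences are shown, 5′ to 3′ on the strand of the gene, from 130 bases before to 29 after the start site, with CHR and NF-Y letters of either strand in capitals.
Racgap1 (chr15:99651627-99651786, minus strand): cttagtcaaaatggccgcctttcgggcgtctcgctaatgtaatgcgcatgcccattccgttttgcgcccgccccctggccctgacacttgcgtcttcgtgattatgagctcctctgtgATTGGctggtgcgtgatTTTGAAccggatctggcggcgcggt
Kif11 (chr19:37376252-37376411, plus strand): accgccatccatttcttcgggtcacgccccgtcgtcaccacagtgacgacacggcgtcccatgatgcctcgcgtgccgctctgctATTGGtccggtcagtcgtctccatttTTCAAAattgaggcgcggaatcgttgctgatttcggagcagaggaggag
Hmmr (chr11:40733408-40733567, minus strand): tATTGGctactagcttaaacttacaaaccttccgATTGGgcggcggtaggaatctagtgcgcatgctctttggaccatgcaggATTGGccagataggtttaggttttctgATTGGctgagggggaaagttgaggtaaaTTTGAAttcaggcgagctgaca
The CHR letters began 5 bases after the start site in Racgap1, 19 before it in Kif11 and 8 after it in Hmmr, and Hmmr held 4 NF-Y boxes in the stretch shown. Of 42 windows of 40 mitosis genes, 31 (73.8%) held a CHR, against 17.9% of all 32851 windows in the table and 11.9% of those of genes at the floor. The shares with both motifs were 64.3%, 6.95% and 4.8%. Among 47 windows of DNA replication genes 12.8% held a CHR and 61.7% an NF-Y box. The 100 largest differences on the crypt side had 91 windows, of 82 genes, and 42.9% held a CHR. The 100 largest on the surface side had 97 windows, of 77 genes, and 16.5% held a CHR. The GC box (GGGCGG) stood in 32% of these surface-side windows, 64.8% of the crypt-side ones and 63.3% of windows of all genes at the floor. The HNF4 letters CAAAGTCCA stood in 4.12% (4 windows), 0.0% and 0.449%, in the same order. A match is a description of letters and not of binding.

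DNA replication genes lay on the same side. Of 44 at the floor 39 were lower and none higher in the surface pool, with a median of -1.97 (-1.23 on control); with ribosomal centring 21 counted as lower and 1 as higher. The helicase subunit gene Mcm6 read 6.02 in heme surface and 9.57 in heme crypt cells (-3.55), and Mcm3 (-3.07), Mcm5 (-2.97), the primase gene Prim1 (-3.31), the methylation reader Uhrf1 (-3.08) and the histone chaperone Asf1b (-3.07) were of like size. Of the cyclin E and activating E2F genes, which start the programme, Ccne1 (-2.00) and E2f1 (-1.02) were lower, and Ccne2 (0.14) and E2f2 (-0.26) were within 2-fold; E2f1 was within 2-fold with each of the 4 scalings. Of 19 histone genes at the floor, picked by symbol and so including the variants H2ax and H2az1, 14 were lower and H2bc4 was higher (1.66). Their median was -1.29 on heme and -0.53 on the control diet. H2ac4 read 3.43 and 6.61 on heme (-3.18), and H2bc3 (-2.80), H2bc18 (-2.80) and H4c6 (-2.64) followed. Histone transcripts are near copies of one another, and probe sets may share signal.

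Genes that build ribosomes were lower in surface cells, and genes of the ribosome itself less so. All 45 ribosome biogenesis genes lay below 0 and 43 were lower, with a median of -1.93 (-1.74 on control). They included the pseudouridine synthase gene Dkc1 (5.10 and 8.11; -3.01), the nucleolar proteins Gnl3 (-2.86) and Nop56 (-2.84), and Polr1b, a subunit of RNA polymerase I (-2.58). Small nucleolar RNA genes, which guide ribosomal RNA modification and whose list was added after the data had been seen, had 25 of 40 lower and none higher (median -1.35). Of 53 cytosolic ribosomal protein genes 34 were lower and none higher, from -1.73 (Rps15a) to -0.32 (Rpl9), with a median of -1.09 on heme and -1.08 on control that is 0.02 once the arrays are centred on these genes. With median centring 21 ribosomal protein genes counted as lower. With ribosomal centring 20 ribosome biogenesis genes counted as lower.

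Ion transport divided by function. Of 38 electrolyte and water transport genes 19 were higher and 7 lower at the surface; their median was 1.05. All 3 subunits of the epithelial sodium channel were higher, the gamma subunit gene Scnn1g with 8.87 in heme surface and 4.61 in heme crypt cells (4.26; 2.98 on control), Scnn1b with a difference of 2.94 (2.14) and Scnn1a with 2.93 (2.54). These absorb sodium, as does the sodium-proton exchanger Slc9a3 (3.54; 4.80 on control), which works with the chloride exchanger Slc26a3 (3.39; 4.47). The water channel gene Aqp8 read 13.11 and 9.90 on heme (3.21) and 12.50 and 7.34 on control (5.15), so its surface values were near each other and its crypt value was higher on heme. Genes of chloride secretion lay on the crypt side: the potassium channel partner Kcne3 (-3.38) and its channel Kcnq1 (-2.39), the potassium channel Kcnn4 (-2.90), the cotransporter Slc12a2 (-3.06) and the chloride channel Cftr (-1.76). The bicarbonate importer gene Slc4a4 read 6.18 in heme surface and 8.41 in heme crypt cells (-2.24), but 8.58 and 8.42 in the control pools (0.16); the low value was that of heme surface cells.

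Nutrient uptake genes lay mostly on the surface side, with 20 of 34 higher and 4 lower (median 1.25; 0.87 on control). Besides Slc6a19 and Slc15a1 these were both chains of the cystine and basic amino acid transporter, Slc3a1 (11.48 and 7.28; 4.20) and Slc7a9 (4.05), the bile acid importer Slc10a2 (4.00) and the citrate transporter Slc13a2 (3.79). The phosphate transporter gene Slc34a2 was 7.37 and 4.57 on heme (2.80) and 9.70 and 5.13 on control (4.57). Amino acid transporters that feed growing cells, Slc7a5 (-2.19), Slc1a5 (-2.02) and Slc38a1 (-1.55), were lower. Over all 191 solute carrier genes at the floor 52 were higher (27.2% against the background of 15.3%) and 30 lower (15.7% against 16.5%), with a median of 0.21; with median centring 19 counted as lower.

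Structural genes of the absorptive cell were higher in surface cells. Of 22 brush border genes 19 were higher and 2 lower (median 2.07; 1.76 on control), among them the meprin protease genes Mep1b (11.20 and 7.03; 4.17) and Mep1a (3.90), the intestinal alkaline phosphatase gene Alpi (3.86) and the microvillus linker Cdhr2 (3.30). The peptidase gene Dpp4 (-1.13) and Baiap2l2 (-2.55) were lower. Of 28 genes of junctions and membrane mucins 14 were higher and 3 lower (median 0.99), with the sealing claudin gene Cldn4 (10.42 and 7.25; 3.17) on one side and the leaky-channel claudins Cldn2 (4.58 and 8.06; -3.48) and Cldn15 (-2.30) on the other; with cyclic loess or quantile normalization 6 counted as higher. Keratin and wound-associated genes had 11 of 15 higher and none lower (median 1.52), or 7 higher with either of these normalizations. The cornified envelope gene Sprr1a read 10.49 and 6.24 (4.25; 3.12 on control), and the urokinase receptor gene Plaur 9.55 and 6.13 (3.42; 1.49). Of 28 mucin-type glycosylation genes 7 were higher (25% against 15.3% of all genes), led by the branching enzyme gene Gcnt3 (2.83, and 0.87 on control). Lower were 5 (17.9% against 16.5%), led by Fut9 (-3.31). Their median of 0.13 turned negative with cyclic loess (-0.17) and quantile normalization (-0.19). On the control diet 3 were higher and 9 lower, with a median of -0.63.

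Detoxifying enzymes lay mostly on the surface side. Of 39 genes on the xenobiotic list 26 were higher and 4 lower (median 2.35; 1.19 on control). Phase I genes among the higher were Cyp3a13 (10.73 and 6.30; 4.43), the carboxylesterase gene Ces2a (4.23) and Cyp2c65 (3.74), and exporters included Abcc2 and the breast cancer resistance protein gene Abcg2 (10.96 and 7.16; 3.80). The conjugating enzyme gene Sult1b1 differed by 3.50. Lower members were the glutathione transferase genes Gsta3 (-1.58) and Gstm1 (-1.22; -2.52 on control), the epoxide hydrolase gene Ephx1 (-1.58) and Sult1a1 (-1.09). Of 27 cytochrome P450 genes at the floor 18 were higher and 2 lower, Cyp39a1 (-2.43) and Cyp20a1 (-1.21). Among 26 ABC transporter genes, a list added after the data had been seen, 12 were higher and 1 lower; in Abcc4 the surface excess was 2.35 on heme and -0.66 on control.

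The antioxidant response driven by NRF2 had its higher values in heme surface cells, and mostly lacked such a surface excess without heme. Of 33 at the floor 23 were higher and 1 lower, with a median of 1.38; on the control diet, where 12% of genes were higher, 6 of the same 33 were higher and 2 lower, with a median of 0.43. Hmox1, the inducible oxygenase that opens the heme ring, read 11.53 in heme surface and 7.12 in heme crypt cells (4.41) and 6.14 and 5.31 in the control pools (0.83). The glutathione-making ligase subunit gene Gclc (12.55 and 9.76; 2.79) and the cystine importer Slc7a11 (10.27 and 7.52; 2.75) had control differences of 0.68 and -1.51. Both heme pools read higher than both control pools for Hmox1 and Slc7a11, and the surface pool was the higher of the heme pools. Srxn1, which repairs peroxiredoxins, differed by 3.10 on heme and 2.71 on control. NADPH supply was represented by Me1 (2.43). The 1 lower member of this list was Gpx2, the glutathione peroxidase of the gut, at 9.47 and 11.67 (-2.20, and -3.00 on control). In all, 4 of the 33 lay below 0. The sensor gene Keap1 (-0.20) and the factor gene Nfe2l2 (0.34) were within 2-fold. With cyclic loess 16 members and with quantile normalization 14 counted as higher.

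Letters of the antioxidant response element (TGACNNNGC, either strand) stood in 11 of 34 windows (32.4%) of 29 NRF2 genes, against 12.4% of all windows and 14.3% of windows of genes at the floor. The stretches from 160 bases to 1 base before the start site of Abcc2 and of Gclm, the modifier subunit of the glutathione ligase, are shown because they hold a match within the promoter proper, in capitals.
Abcc2 (chr19:43782148-43782307, plus strand): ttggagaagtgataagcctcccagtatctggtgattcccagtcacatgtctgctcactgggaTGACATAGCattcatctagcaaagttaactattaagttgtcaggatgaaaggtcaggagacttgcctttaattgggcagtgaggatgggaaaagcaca
Gclm (chr3:122245397-122245556, plus strand): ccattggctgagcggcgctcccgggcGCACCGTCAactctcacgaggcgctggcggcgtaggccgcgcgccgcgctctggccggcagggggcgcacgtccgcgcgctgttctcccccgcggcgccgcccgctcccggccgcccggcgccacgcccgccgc
The match began 98 bases before the start site in Abcc2 and 134 before it in Gclm. Abcc2 had a difference of 4.67 and Gclm, named for this match after its values were seen, 1.5, with 11.40 in heme surface and 9.90 in heme crypt cells and 8.74 and 8.98 on the control diet. With quantile normalization Gclm was within 2-fold (0.88). Distant enhancers, such as those known for Hmox1, are outside these windows.

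Heme and iron genes were spread around 0. Of 34 at the floor 10 were higher and 4 lower, with a median of -0.0019 that lay above 0 with each scaling (0.07 with cyclic loess and 1.11 with ribosomal centring). Besides Hmox1, the iron exporter gene Slc40a1 (11.66 and 7.77; 3.89), its ferroxidase partner Heph (2.96) and Alas1, the first enzyme of heme synthesis (1.48), were higher, as were both ferritin chains as deposited, Ftl1 (1.38) and Fth1 (1.12). The ferritin genes were within 2-fold with cyclic loess (Ftl1 0.58, Fth1 0.04) and quantile normalization (0.67 and 0.34). Lower were the metal importer Slc39a8 (-2.44), Cpox of heme synthesis (-2.00), the transferrin gene Trf (-1.15) and the transferrin receptor gene Tfrc (-1.09; -1.97 on control).

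**Figure D4:**
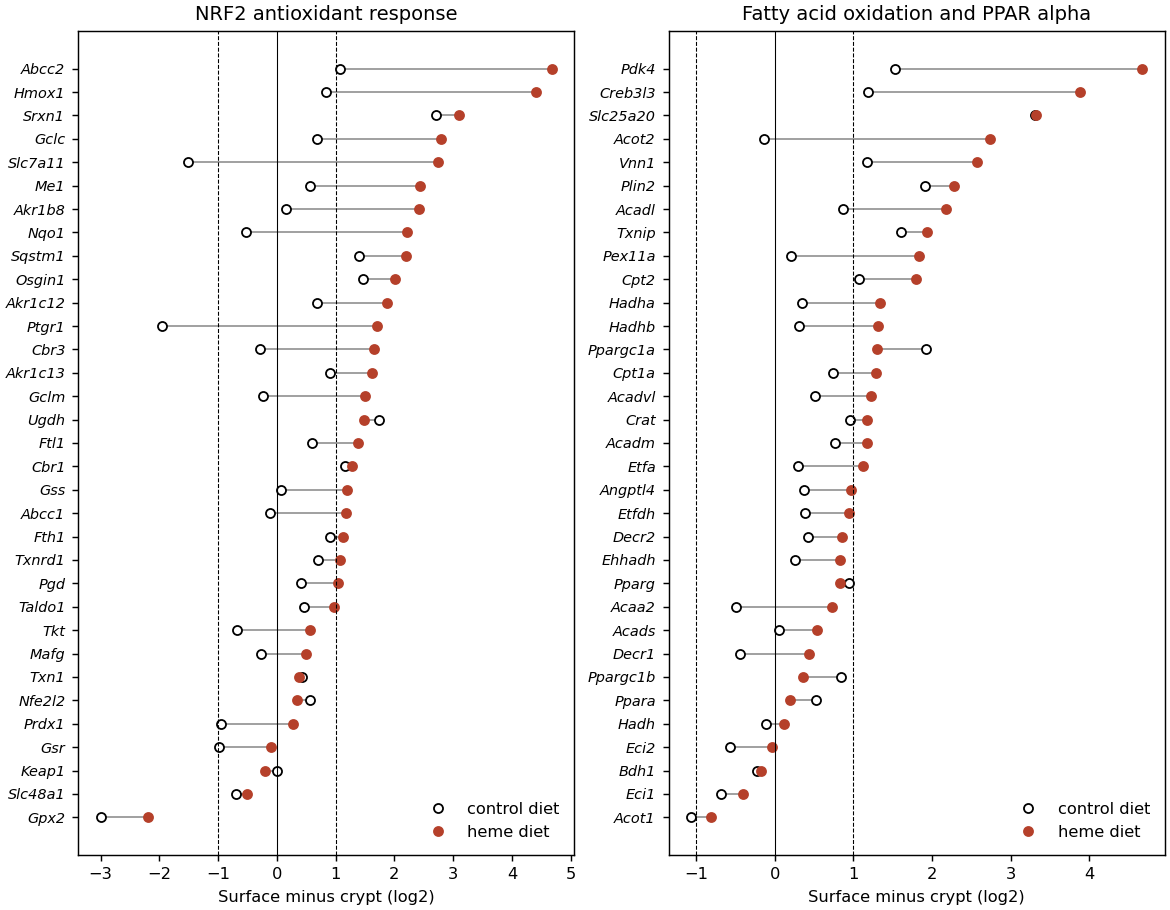
Surface minus crypt differences (log2, x axis) of the 33 members at the floor of the NRF2 list (left) and of the 33 of the fatty acid oxidation list (right), filled for the heme diet and open for the control diet, with dashed lines at 2-fold. In each panel 29 of 33 members have the larger value on heme. Among all 1056 genes higher on both diets, 640 have the larger difference on heme.

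Fatty acid oxidation and fatty acid synthesis genes lay on opposite sides as deposited. Of 33 genes that burn fatty acids or answer to PPAR alpha, the nuclear receptor that senses fatty acids, 18 were higher and none lower (median 1.17), against 7 and none of the same genes on control (median 0.42). Pdk4 led them, followed by the transcription factor gene Creb3l3 (9.45 and 5.57 on heme, 6.34 and 5.15 on control), the carnitine carrier Slc25a20 (3.32; 3.30 on control) and the acyl-CoA thioesterase Acot2 (2.73; -0.13). The receptor gene Ppara itself differed by 0.20. With cyclic loess 13 of the list counted as higher. Of 13 fatty acid synthesis genes 8 were lower, among them the desaturase genes Fads2 (8.20 and 10.93; -2.73) and Fads1 (-2.44) and the synthase Fasn (-1.40), and 3 were higher, Elovl6 (2.43), Me1 and Elovl1 (1.14); Me1 is also on the NRF2 list. With ribosomal centring 2 synthesis genes counted as lower and 3 as higher (median -0.23), and Elovl1 was within 2-fold with cyclic loess (0.87) and quantile normalization (0.70). None of 20 cholesterol synthesis genes differed 2-fold, and their median of -0.17 turned to 0.95 with ribosomal centring.

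Energy genes depended on the scaling. Of 14 glycolysis genes 8 were higher and none lower (median 1.09; 0.99 on control), or 5 with cyclic loess and 4 with quantile normalization, including Pfkfb4 (2.07), the hexokinase gene Hk2 (1.67) and Pck1, an enzyme of glucose making (9.67 and 7.71; 1.97 on heme and -0.14 on control). Among 74 oxidative phosphorylation subunit genes 68 lay above 0, but 8 were higher by the size rule (10.8% against the background of 15.3%) and none lower, with a median of 0.47 that was above 0 in all 4 scalings. The 8 became 3 with cyclic loess (median 0.21), 1 with quantile normalization (0.16), 17 with median centring and 69 with ribosomal centring. Cox7a1 stood apart among them (9.80 and 7.24; 2.55). None of 37 proteasome subunit genes differed 2-fold (median -0.10, above 0 with either centring).

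Retinoid genes, a list added after the data had been seen, had 9 of 19 higher and 1 lower. Dhrs9, Rdh9 (9.20 and 4.82; 4.38) and Rdh16 (4.30) oxidize retinol, Rbp2 carries it (4.12) and Aldh1a1 makes retinoic acid (3.00; 1.89 on control). Rdh11, which reduces retinal, was the lower member (-1.51). Members of the Rdh and Ly6 families are near copies of one another, so their probe sets may share signal.

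Among ligands and receptors of the EGF family 8 of 11 were higher and 1 lower (median 1.40; 0.78 on control). The ligand gene Ereg read 8.55 in heme surface and 5.04 in heme crypt cells (3.51) and was below the floor in both control pools (5.01 and 4.98). Other ligands were Nrg1 (7.97 and 4.95; 3.02), Hbegf (2.50) and Btc (1.40; 0.08 on control). Of the restrainers, Errfi1 was higher (3.04) and Lrig1 lower, and the receptor gene Egfr was within 2-fold (0.36). Immediate early genes, which such signals switch on, had 15 of 21 higher and none lower (median 2.27; 1.5 on control), with Atf3 (9.32 and 5.81; 3.51), Fos (3.46), Dusp1 (3.32) and Egr1 (3.00; 1.60 on control) at the top.

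The Wnt pathway, which maintains crypt cells, had members on both sides. Of 14 genes at the floor 4 were lower (28.6% against 16.5% of all genes) and 2 higher (14.3% against 15.3%). Lower were the feedback targets Axin2 (-2.04) and Znrf3 (-1.74), the antagonist Sfrp1 (-1.41) and the receptor Fzd7 (-1.30). Higher were the factors Tcf7l2 (10.43 and 8.55, a difference of 1.88) and Lef1 (1.26). The list median of -0.01 turned positive with either centring. All 9 Notch pathway genes at the floor lay below 0 and 3 were lower, Notch1 (-1.66), Lfng (-1.39) and Notch2 (-1.30), with a median of -0.83 that became 0.29 with ribosomal centring. On the log2(value + 32) scale Sfrp1 (-0.84), Lef1 (0.71), Lfng (-0.97) and Notch2 (-0.99) were within 2-fold. The BMP and hedgehog genes had 7 of 17 higher and 1 lower. The ligand gene Bmp2, a restrainer of crypt growth, read 9.30 and 5.55 on heme (3.75; 3.99 on control), its targets Smad7 (2.12) and Id1 (1.34) were higher, and the hedgehog transducer Smo was lower (-2.05). The hedgehog ligand gene Ihh read 7.17 in heme surface and 8.07 in heme crypt cells and 8.33 and 8.10 in the control pools, so that the surface pool was the low one on heme (-0.90) and about equal without it (0.23).

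Transcription factors of the epithelium lay on both sides. Of 31 at the floor 9 were higher (29% against 15.3% of all genes) and 7 lower (22.6% against 16.5%). On the control diet 10 of them were higher and 6 lower. Their median of -0.32 on heme became 0.83 with ribosomal centring. Higher were the Myc antagonist Mxd1 (3.57), Prdm1 (3.06), the differentiation factor Klf4 (2.46) and the bile acid receptor Nr1h4 (2.03), beside Creb3l3. Lower were Myc, the progenitor factors Myb (-3.14) and Sox9 (-2.39), and Hnf4g (-1.5; -0.17 on control). Of 10 prostaglandin genes 6 were higher and 1 lower, with Ptgs2 and the prostaglandin importer Slco2a1 (10.50 and 7.14; 3.36) ahead of the degrading enzyme gene Hpgd (1.71). The phospholipase gene Pla2g4a, which frees the precursor, was lower (-1.05). Of 4 polyamine genes 2 were higher, the breakdown enzymes Sat1 (1.57) and Smox (1.57), and the spermidine synthase gene Srm was lower (-2.55).

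Defence genes had 10 of 23 higher and 3 lower (median 0.81). Beside Nlrp9b and Saa1 these were the pore-forming gasdermins Gsdmc4 (9.89 and 6.55; 3.34 on heme and 0.57 on control) and Gsdmc2 (2.04), the cytokine gene Il18 (2.91) and the protease inhibitor gene Slpi (8.59 and 5.98; 2.61 on heme and 0.30 on control). Gsdmc2 read 8.82 and 6.78 on heme and 11.18 and 10.84 on control (0.34), and Gsdmc4 10.65 and 10.07 on control. For both genes each heme pool read lower than either control pool, and the heme crypt pool was the lowest. The antibody transporter gene Pigr was lower (-1.37). Interferon and antigen presentation genes had 6 of 18 higher and none lower (median 0.60; 1.04 on control), among them Rsad2 (2.56), Irf7 (2.22; 3.97 on control) and Ifit1 (2.13; 3.62). Of 18 p53 target and cell death genes 9 were higher and 1 lower, with the cell cycle inhibitor Cdkn2b (9.18 and 6.11; 3.07), the death effector Pmaip1 (2.42) and the survival gene Bcl2l1 (1.75) higher and the survival gene Bcl2 lower (-1.63). Of 25 heat shock, unfolded protein and ATF4 genes 5 were higher (20% against 15.3% of all genes) and 6 lower (24% against 16.5%). Atf3 and Ddit3 (1.30) were higher and Hsph1 (-1.66) and the serine synthesis gene Phgdh (-1.60) lower, and the median of -0.18 turned positive with either centring.

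Set beside the control pools, the same genes mostly differed the same way. On the control diet 1301 genes (12%) were higher and 1464 (13.5%) lower in surface cells, of 10864 at the floor. Of the 1637 genes higher on heme 1056 (64.5%) were among them, which is 81.2% of the control's, and of the 1763 lower 1176 (66.7%), which is 80.3%. Over 11147 genes at the floor on either diet the differences had a standard deviation across genes of 1.13 on heme and 1.00 on control, and their Pearson correlation across genes, which are not independent replicates, was 0.886. Among the shared higher genes the median difference was 1.88 on heme and 1.69 on control, and among the shared lower genes -1.71 and -1.48. The 2 comparisons share no array, and with 1 pool a side in each, whether these spreads differ beyond the variation between mice could not be tested.

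The genes with the largest differences on heme that did not reach 2-fold on control at the floor were, on the surface side, Slc6a19, Hmox1, Dthd1 (3.97), Ccdc87 (3.51), Ereg and the mineralization gene Dmp1 (3.47). Dthd1 read 7.26 in heme surface cells and 3.29, 4.15 and 3.53 in heme crypt, control surface and control crypt cells, and Ccdc87 and Dmp1 had the same pattern of 1 array above the floor. On the crypt side they were Hmmr, the kinetochore gene Cenph (-3.23), Depdc1a (-3.23), H2ac4, the mitotic phosphatase gene Cdc25c (4.21 and 7.21 on heme, 4.11 and 5.46 on control) and Fancb of DNA repair (-2.91). For these 6 the control crypt value lay below the floor, so their control differences of -2.08 (Depdc1a) to -1.35 (Cdc25c) are of uncertain size.

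A further set differed at least 2-fold on control but not on heme as deposited. These genes were chosen after their values were seen. The hydrogen peroxide-producing oxidase gene Duox2 read 7.72 in heme surface and 8.15 in heme crypt cells (-0.44) but 10.53 and 8.00 in the control pools (2.53). Its maturation factor Duoxa2 read 6.22 and 6.89 (-0.68) against 8.96 and 6.13 (2.83). The cytokine gene Il15 was 6.29 and 5.48 (0.81) against 8.55 and 5.80 (2.75), and the folate transporter gene Slc46a1 5.81 and 6.01 (-0.21) against 8.75 and 6.01 (2.74). In all 4 the heme surface pool read lower than the control surface pool. On the crypt side B3gnt6, which extends mucin glycans, was 5.19 and 5.94 on heme (-0.74) and 6.06 and 8.55 on control (-2.49). Its heme surface value also lay below the floor. The hormone gene Insl5 was 8.92 and 9.81 on heme (-0.89) against 7.90 and 9.75 (-1.86). Insl5 nevertheless passed 2-fold on heme with cyclic loess (-1.13) and quantile normalization (-1.26).

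**Figure D5:**
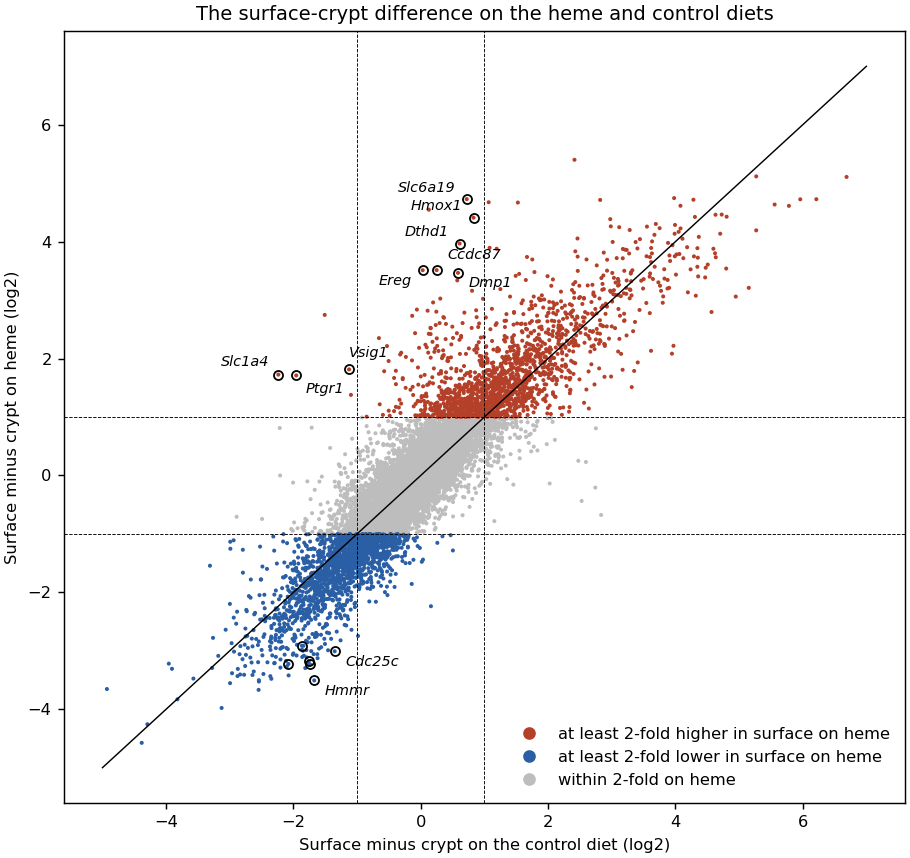
Each point is 1 of the 10698 genes, with its surface minus crypt difference (log2) on the control diet on the x axis and on heme on the y axis; the solid line marks equal differences and the dashed lines 2-fold. Ringed are the 6 largest each way on heme that were not counted on control, where the 6 on the crypt side passed 2-fold but lay below the floor, predicted and unnamed genes left out, and the 3 genes past it in opposite directions, Slc1a4, Ptgr1 and Vsig1, at the upper left.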

How the data were processed

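The authors deposited log2 expression values per probe set of an Affymetrix whole-transcript array, summarised by RMA, per the submitters' processing notes (a method that, as usually run, corrects background, quantile-normalizes arrays and summarises probes); its version is not given in the sources used here. RNA of each pool, 100 ng, was labelled per the labels' protocols. Of 35556 probe sets 21789 had 1 gene symbol, 1621 several and 12146 none in the platform annotation; symbols were updated to the GRCm38.p6 gene table for 21698 of the 21789, and genes are means of their single-symbol probe sets. Detection calls were not used, and precision is limited by there being 1 array a pool.

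The difference of the 2 heme arrays was taken, and genes at least 2-fold apart with the higher array at the floor were counted; this rule was tested on simulated data. No p-values were computed. Lists give members past the rule each way and the median, beside all genes at the floor. The genes described and the 51 lists were chosen with earlier results of these data known, 8 more lists after seeing the data, and 1584 list genes had 1518 with a value. Named are the 12 largest differences each way, up to 6 each way per list, the 6 largest each way with both arrays at the floor, the 6 largest each way not past the rule on the control diet, and genes past it in opposite directions; predicted genes and microRNA, small nucleolar RNA, receptor and immunoglobulin families were left out of the rankings. Other genes were named after their values were seen: Abcc4, Acta2, Aldh1a1, B3gnt6, Ccne1, Cftr, Col3a1, Dmbt1, E2f1, E2f2, Egfr, Fth1, Gclm, H2az1, Muc2, Nfe2l2, Noxo1, Ppara, Pttg1, Rbp2, Rdh9, Rdh11, Rdh16, Rpl9, Scnn1a, Scnn1b, Slc34a2, Slc46a1, Sult1b1, Lgr5, the markers listed as below the floor and the genes at the floor's edge. Alternatives were other scalings, floors, probe set rules, fold sizes and log2(value + 32). Promoter sequences are RefSeq's (GRCm38.p6). Python 3.11.15, pandas 2.3.3, numpy 2.4.6, R 4.3.3 and limma 3.58.1 (cyclic loess and quantile normalization) were used.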

Additional observations from a re-analysis of the deposited data

Results flagged for a closer look

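Only 3 genes passed 2-fold in opposite directions on the 2 diets, with the surface side higher on heme and lower on the control diet. Ptgr1, which reduces reactive lipid aldehydes, read 10.21 in heme surface and 8.50 in heme crypt cells (1.71). In the control pools it read 6.01 and 7.96 (-1.96). The neutral amino acid transporter gene Slc1a4 read 10.30 and 8.57 on heme (1.73) and 6.05 and 8.29 on control (-2.24). The membrane protein gene Vsig1 read 8.58 and 6.76 on heme (1.81) and 4.98 and 6.11 on control (-1.13). In each the heme surface pool was the highest of the 4 and the control surface pool the lowest. With 1 pool a side the difference between the diets was not tested.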

How the results depend on the processing

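No paired analysis was possible because each diet and compartment is 1 pooled array, and for the same reason no replicate could be left out. As deposited 1637 genes were higher and 1763 lower. These counts became 6692 and 348 with ribosomal centring, 2669 and 2951 at 1.5-fold and 834 and 769 at 3-fold, while the lower count became 1108 with the floor at the 75th percentile and 1168 with both arrays at the floor. Under log2(value + 32), median centring, cyclic loess, quantile normalization, no floor, a floor from the heme arrays and other probe set rules both counts stayed within 1.5 times (1347 to 1981 higher, 1225 to 1835 lower), and the higher count also with the stricter floors (1358 and 1340). Cyclic loess shared 1397 higher and 1523 lower genes with the deposited scale. Called values changed sign as follows: with ribosomal centring the ribosomal protein median became 0.0193, E2f1 0.0931, Gcg 0.0006, Pla2g4a 0.0638, Sult1a1 0.0177 and Tfrc 0.0203; with both arrays at the floor the schlafen median became -0.16, where fewer genes were counted. Of 246 named genes 192 kept their side of 2-fold with ribosomal centring, and those past it their direction. The number was 232 with log2(value + 32), 237 with cyclic loess and 246 with the highest probe set. A gene within 2-fold on both scales was counted as kept even where its sign changed. Values below the floor have no firm size, and with 1 array a pool nothing here measures variation between mice.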

Other observations

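Members of the CLCA family, a list added after the data had been seen, divided evenly: Clca4b (5.40), Clca4a (3.94) and Clca1 (2.64) were higher in surface cells, and Clca3a1 (-2.87), Clca3b (-3.22) and Clca3a2 (-4.26) lower, each way also with ribosomal centring and cyclic loess. Of 7 Ly6 and uPAR family genes at the floor 6 were higher and Ly6e was lower (-1.14), and with ribosomal centring, which brings more of the family to the floor, 12 members were higher and none lower. Of 5 schlafen genes 3 were higher, led by Slfn4 (8.83 and 5.42; 3.41), and Slfn9 was lower (4.24 and 7.53; -3.29).

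Probe sets without a gene symbol also differed: of 4897 at the floor 551 (11.3%) were higher and 474 (9.68%) lower in heme surface cells. Of 778 probe sets with several symbols at the floor 68 (8.74%) were higher and 219 (28.1%) lower. Of 208 genes with several probe sets counted as higher or lower, 165 had every probe set past 2-fold and 1 had probe sets of opposite sign.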
